A study of Mus musculus with 6 samples.

Results

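The comparison described here is that of mouse embryonic stem cells (mESCs) after 6 h of RNA polymerase II (Pol II) degradation with the same cells left untreated, read by polyA RNA-Seq across all genes. Its members were the 2 auxin-treated and the 2 untreated libraries of the Pol II degron line, 4 of the 6 libraries in the series, taken by their labels. The line was made from V6.5 mESCs as a single clone, homozygous for an mAID-EGFP tag at the C terminus of RPB1, the catalytic Pol II subunit that Polr2a encodes, and carries a doxycycline-inducible OsTIR1 gene at the Rosa26 locus. Both groups received 1 μg/ml doxycycline for 12 h, and 500 μM auxin (IAA) for 6 h was added to the treated group alone, so that the tag, the clone, OsTIR1 and doxycycline are shared by both. The cells were grown in serum and LIF on irradiated mouse embryonic fibroblast feeders, which were passaged off before harvest, so feeder RNA could remain. The other 2 libraries came from wild-type mESCs and were used for levels only.

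Pol II makes all mRNAs, most long non-coding RNAs, the primary transcripts of most microRNAs and the host transcripts of most small nucleolar RNAs, whereas Pol I makes ribosomal RNA, Pol III makes tRNAs and other short RNAs, and a separate polymerase transcribes the mitochondrial genome. In the auxin system a plant F-box protein, here OsTIR1, marks the tagged subunit for the proteasome, so the loss is of protein and not of the Polr2a mRNA. A polyA library measures the pool of mature transcripts. That pool reflects both synthesis and decay, and short-lived transcripts, such as those of many transcription factors and immediate early genes, are known to respond first when either one changes.

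The authors deposited whole-number counts for 39017 genes, not normalized. The untreated libraries held 14094022 and 14618357 counts and the auxin-treated libraries 15358714 and 15146135, so the treated libraries were slightly deeper, and all fold changes below are after TMM scaling. A gene was tested if it passed edgeR's filter for a minimum count of 10, which left 16128 genes, and it was called if its Benjamini-Hochberg adjusted p was under 0.05 in the quasi-likelihood test of edgeR. TMM scaling places the typical gene at no change. No RNA of known amount is named as having been added, so a loss shared by all mRNAs would not be seen, and fewer cells of a kind cannot be told apart from less RNA per cell. Of 9 markers of mESCs all were detected, with a summed level of 4196 and 4690 CPM (counts scaled to 1000000 per library) in the untreated and 3568 and 3797 CPM in the auxin-treated libraries. Feeder fibroblast markers, 8 of 10 tested and Lum without a count, summed to 181 and 175 CPM in the untreated and 203 and 231 CPM in the treated libraries, with 1 of the 8 called higher. Replicates within each group differed by more than sampling noise, so each library was counted as 1 replicate.

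After auxin 413 genes were higher (2.56% of those tested) and 264 lower (1.64%), and the genes in each direction differed in level. The higher genes were mostly weakly expressed, with a median of 63.0 counts per library, and 187 of them had a mean under 50 counts. The lower genes were mostly well expressed, with a median of 941 counts, and 2 of them had a mean under 50. Changes were small for the lower genes. Among called genes averaging 50 counts or more, which were 1.81% (higher) and 2.10% (lower) of the genes tested at that level, the median log2 fold change was 0.66 in size for the higher genes and 0.38 for the lower. Past a log2 fold change of 1 there were 240 higher genes (1.49%) and 7 lower genes (0.0434%), and 5 of these 7 were precursor loci of the miR-290 cluster. A gene could pass the filter through either group alone. With at least 10 counts required in every library, 105 higher and 6 lower genes were past 1. The auxin-treated libraries lay on one side of the untreated ones in every called gene, but so they did for 49.9% of all genes tested. DESeq2 called 176 higher (1.09%) and 114 lower (0.707%). When the libraries were scaled to mRNAs of the mitochondrial genome, whose polymerase is a separate one, the median of all genes moved to −0.17 and 167 genes were higher (1.04%) and 52 lower (0.322%). These mRNAs took 0.341% and 0.401% of the counts in the untreated and 0.399% and 0.441% in the treated libraries. The groups overlapped in this reference, so the shift of the median and the calls lost on this scaling are uncertain. Counts of calls also depended on which library was left out. Such a fit takes its spread from the other pair alone, and the pairs differed. The chi-square per gene between replicates was 5.72 for the untreated and 2.31 for the auxin-treated pair. Calls counted without a library, here and below, are therefore not read as effects of that library.

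**Figure D1:**
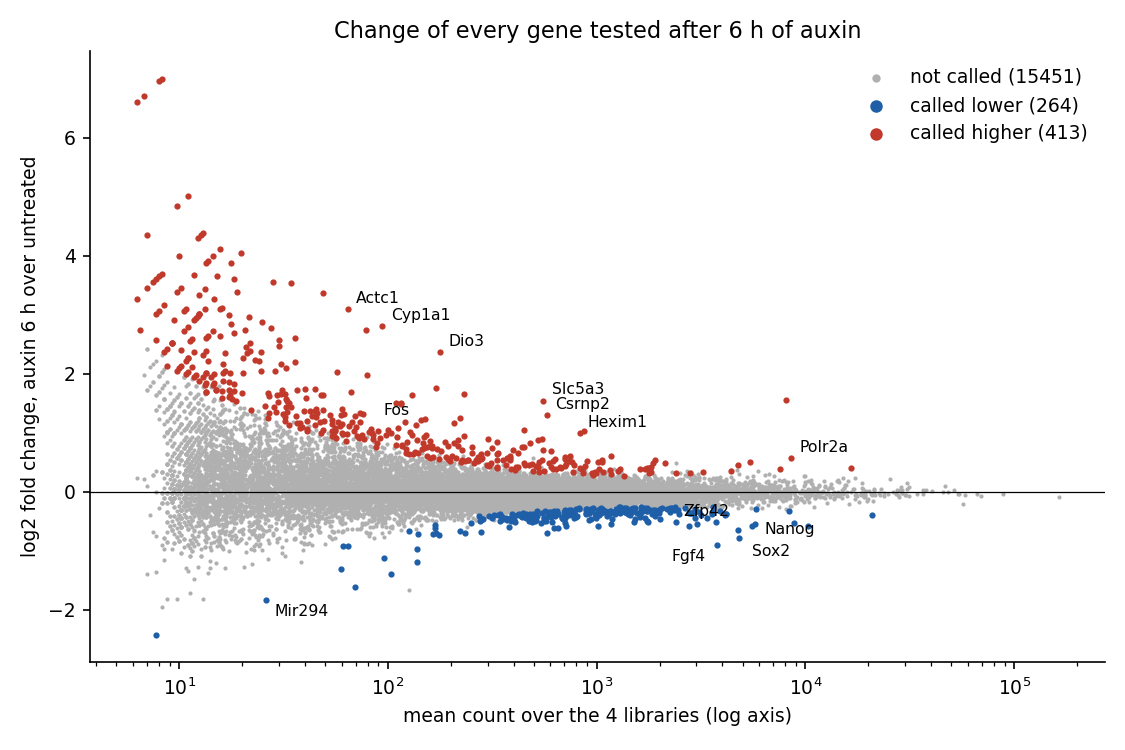
Each point is 1 of the 16128 genes tested, with its mean count over the 4 libraries on a log axis and its log2 fold change of auxin-treated over untreated on the vertical axis; red points are the 413 genes called higher and blue points the 264 called lower. Values far above those of other genes at the left edge belong to genes without untreated counts and depend on the prior count of the fit. The red points lie mostly at low counts, whereas the blue points lie mostly above 300 counts and close to 0.

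The transcript of the degraded subunit itself was higher. Polr2a had 6623 and 6568 counts in the untreated and 10396 and 10663 in the treated libraries, a log2 change of 0.57 with a standard error of 0.07 (adjusted p = 0.00117, edgeR). The treated libraries lay above both untreated ones, and the call was lost when scaled to the mitochondrial mRNAs (log2 fold change 0.40, adjusted p = 0.279, edgeR) and without auxin-treated replicate 2. Among 32 tested subunits of the 3 nuclear polymerases, Polr2a was the 1 called higher and 3 were called lower (12.5% called, beside 4.20% of all genes). The median log2 fold change was −0.08 beside −0.00 for all genes. The lower ones were Polr2j, a small Pol II subunit (−0.50), Twistnb, a Pol I subunit (−0.42), and Polr3a, the largest Pol III subunit (−0.31, adjusted p = 0.0432, edgeR). Polr1a, the largest Pol I subunit, had a log2 change of −0.01 with a standard error of 0.07 and was not called.

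Among the genes of proteins that act with Pol II, an inhibitor of elongation was higher. Hexim1, which binds and inactivates the elongation kinase P-TEFb, lies on chromosome 11 of mm10 (chr11:103116231-103119725) as a gene of 1 exon. It had 517 and 534 counts in the untreated and 1153 and 1106 in the treated libraries, a log2 change of 1.00 with a standard error of 0.08 (adjusted p = 1.91e-05, edgeR), and it was called under all 12 alternatives tried. It was the single call among 39 P-TEFb, super elongation complex and pausing genes (2.56%, beside 4.20% of all genes). The kinase subunit Cdk9 (−0.16) and its cyclins Ccnt1 (−0.24) and Ccnt2 (−0.17) were not called, nor was the paralog Hexim2 (−0.11, 119 and 109 counts untreated and 113 and 114 treated). Rn7sk, the Pol III transcript that holds Hexim1 on P-TEFb and has no polyA tail, had only 29 and 15 counts untreated and 42 and 48 treated, and was not called (log2 fold change 0.92, adjusted p = 0.13, edgeR). Of 34 general transcription factor genes 5.88% were called, beside 4.20% of all genes. Gtf2b, which encodes TFIIB, was higher (0.56) and Taf5, a subunit of TFIID, lower (−0.34), both lost by DESeq2 (adjusted p = 0.0508 and 0.182). Of 32 Mediator genes Med20 was the 1 call and was lower (−0.33), a share of 3.1%.

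Transcription factors of the naive pluripotent state were among the lower genes. Of 30 tested members 8 were called and all of these were lower (26.7% called, beside 4.20% of all genes), and the median log2 fold change was −0.17, or −0.34 when scaled to the mitochondrial mRNAs. Sox2, a gene of 1 exon that lies within the non-coding Sox2ot, had 5390 and 6474 counts in the untreated and 3603 and 3815 in the treated libraries, a log2 change of −0.78 with a standard error of 0.09 (adjusted p = 0.000482, edgeR). Zfp42, also known as Rex1 and a marker of the naive state, had 5614 and 5627 counts untreated and 3777 and 3908 treated. Nanog went from 6332 and 6531 to 4760 and 4500 counts, a log2 change of −0.58 with a standard error of 0.07 (adjusted p = 0.00092, edgeR). All 3 stayed called under every alternative tried, including no filter. The other calls were Tbx3 (−0.54), Esrrb (−0.54), Klf2 (−0.51), Sall4 (−0.50) and Dppa3 (−0.46), of which Dppa3 was kept under 5 of the 12 alternatives and Esrrb was lost by DESeq2 (adjusted p = 0.147). Without auxin-treated replicate 1 the list had 4 calls, all lower, without auxin-treated replicate 2 it had 6, and without untreated replicate 1 or 2 it had 17 and 14 lower with 2 and 1 higher.

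Other factors of this state were not called. Pou5f1, which encodes OCT4, had 10625 and 12703 counts in the untreated and 12622 and 13854 in the treated libraries, a log2 change of 0.08 with a standard error of 0.09 (adjusted p = 0.689, edgeR), and its groups overlapped. Utf1 (−0.02), Dppa5a (−0.11) and Klf4 (−0.24) were also not called, and Myc, at 193 and 152 counts untreated and 209 and 260 treated, had a log2 fold change of 0.34 that missed the threshold (adjusted p = 0.256, edgeR). Fgf4, the main FGF ligand of mESCs and a known target of SOX2 and OCT4, had the smallest p of all lower genes. It went from 4462 and 5152 counts to 2845 and 2695, or from 315 and 359 to 184 and 178 CPM (log2 fold change −0.90, standard error 0.08, adjusted p = 5.63e-05, edgeR), and was called under all 12 alternatives. Of 18 tested FGF-ERK genes, Spry2, a feedback inhibitor of the pathway, was the other call (−0.36, lost by DESeq2 with an adjusted p of 0.103). The list had 11.1% called, beside 4.20% of all genes, and the 4 tested receptors had log2 fold changes from −0.30 to 0.23. Tfap2c, a factor shared by the naive state, trophectoderm and germ cells, fell from 694 and 845 to 547 and 537 counts (−0.61).

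Several hosts of small nucleolar RNAs were lower. Eif4a2, a helicase of translation initiation, had 11815 and 12067 counts in the untreated and 9026 and 8057 in the treated libraries, a log2 change of −0.59 with a standard error of 0.08 (adjusted p = 0.00157, edgeR), and was not called without auxin-treated replicate 2. Eif4a2 carries small nucleolar RNA (snoRNA) genes in its introns, as do other lower genes, so hosts were counted from the annotation. Of 188 tested protein-coding genes with a snoRNA gene inside them on the same strand, ribosomal protein genes left out, 12 were lower (6.38%) and 2 higher, compared with 1.71% lower of all protein-coding genes. At 300 counts or more on average it was 12 of 151 hosts (7.95%) and 216 of 7813 other genes (2.76%). The 12 included Alkbh1, a demethylase of nucleic acids (−0.61), Rabggtb, a subunit of the Rab prenylation enzyme (−0.58), Hspa8, the constitutive HSP70 (−0.39), and the nucleolar genes Gnl3 (−0.40), Ppan (−0.38) and Wdr43 (−0.27). This class was set up after the values had been seen and carries no test, and the median of the hosts (−0.04) lay close to that of other genes.

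Non-coding snoRNA hosts were also among the lower genes. Of 8 tested, Gas5 (−0.36), Snhg5 (−0.37) and Snhg7 (−0.50) were lower (37.5%, beside 1.64% of all genes). The locus counted as Snhg7 is, however, annotated as a snoRNA of 1 exon that overlaps Snora43. Its value is therefore not that of a host transcript. Gas5 had 2965 and 3020 counts in the untreated and 2627 and 2400 in the treated libraries. These calls did not hold when either auxin-treated library was left out, and Snhg7 was lost by DESeq2 (adjusted p = 0.0623). Reads counted on snoRNA genes themselves had a median log2 fold change of −0.67 over the 61 that passed the filter. Of these, 3 were called lower (4.92%, beside 1.64% of all genes and 0.0549% of genes under 50 counts). The class rests on few counts, with a median level of 20.5. Many of these genes lie inside hosts, and reads of the host transcript cannot be told apart from those of the snoRNA.

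Genes that build the ribosome gave a large count of lower calls. In a list of 71 tested ribosome biogenesis genes, written after the values had been seen and therefore given as a description, 15 were lower (21.1%, beside 1.64% of all genes and 2.91% of genes with 300 counts or more) and none higher, with a median log2 fold change of −0.13 and a range from −0.50 to 0.19. Factors of large-subunit assembly made up 9 of the 15 and those of small-subunit assembly 6. Urb2, a nucleolar assembly factor, had 1694 and 1743 counts in the untreated and 1329 and 1353 in the treated libraries, a log2 change of −0.46 with a standard error of 0.07 (adjusted p = 0.00282, edgeR), and Diexf, which acts in small-subunit processing, fell from 642 and 654 to 500 and 486 (−0.50). Other calls were Srfbp1 (−0.43), Nip7 (−0.31), Pwp2 (−0.32), Tex10 (−0.31) and Rrs1 (−0.29). In the shorter list of 30 core nucleolar genes, itself chosen with earlier results of these data known, 2 were lower (6.67%). DESeq2 called 5 of the 71, no call remained when scaled to the mitochondrial mRNAs, and 1 remained without auxin-treated replicate 1 and also without replicate 2, against 31 and 14 without untreated replicate 1 and 2. Of 89 cytosolic ribosomal protein genes the 1 call (1.12%) was Rpl7l1, a paralog of Rpl7 (−0.34), and the median log2 fold change was −0.02. Rpl7l1 was not called without auxin-treated replicate 1 or without replicate 2, and the list had 1 higher and 25 lower without untreated replicate 1 but 8 higher and 1 lower without untreated replicate 2.

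Several regulators of mRNA processing and turnover moved. Tob1, an adaptor that brings the CCR4-NOT deadenylase to mRNAs, had 358 and 347 counts in the untreated and 732 and 656 in the treated libraries, a log2 change of 0.87 with a standard error of 0.09 (adjusted p = 0.000284, edgeR), and was called under all 12 alternatives. Its paralog Tob2 was also higher, from 370 and 366 to 534 and 549 counts (0.45), although not by DESeq2 (adjusted p = 0.0601), whereas the related Btg1 was at −0.24 and was not called. Zfp36l1, which binds AU-rich elements of short-lived mRNAs and promotes their decay, rose from 582 and 547 to 878 and 975 counts (0.61). Among 46 tested mRNA decay factors Tob1 and Tob2 were the higher calls, and 1 of the 21 genes of the exosome and nonsense-mediated decay was called lower. The list had 6.52% called, beside 4.20% of all genes, with a median log2 fold change of −0.07. In the m6A pathway, again a list written after the values were seen, 5 of 16 tested genes were lower (beside 1.64% of all genes), namely the writer components Wtap (−0.36), Mettl14 (−0.40) and Cbll1 (−0.45) and the readers Ythdf1 (−0.30) and Ythdf2 (−0.40). DESeq2 called 1 of these 5, and without auxin-treated replicate 1 and 2 there were 1 and 0 calls by edgeR, and 6 without either untreated library in turn (7 lower had an unadjusted p under 0.05 in all libraries). Of 39 splicing factors Srsf4 (−0.45), Hnrnpdl (−0.36) and Clk4 (−0.31) were lower and Hnrnph1 (0.39) was higher (10.3% called, beside 4.20% of all genes).

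Other lower genes named by p-value or size had unrelated functions and mostly modest levels. Zswim1, a zinc finger protein gene, went from 777 and 881 to 605 and 591 counts (−0.57), and Inpp5d, which encodes the inositol phosphatase SHIP1, from 1106 and 1116 to 868 and 877 counts (−0.45). Kcnj12, a potassium channel gene, went from 71 and 94 to 40 and 53 counts (−0.93), Gjb5, a connexin gene, from 151 and 185 to 102 and 118 counts (−0.71) and Arhgap30, which encodes a GTPase-activating protein, from 172 and 226 to 129 and 132 counts (−0.71). The last 3 rest on few counts, and Kcnj12 kept its call under 5 of the 12 alternatives. Of 75 mitochondrial ribosomal protein genes 3 were lower (4.00%, beside 2.91% of genes with 300 counts or more), namely Mrpl50 (−0.49), Mrps18b (−0.39) and Mrps2 (−0.37). The median of the list was −0.05.

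Cell division and cell death genes had a few small changes. Of 45 tested cell cycle genes 4 were called, all lower (8.89%, beside 1.64% of all genes and 2.91% of genes with 300 counts or more). They were Fbxo5, which restrains the anaphase-promoting complex (−0.45), Cdt1, a licensing factor (−0.37), Aurka, a mitotic kinase (−0.36), and Rrm2, a subunit of ribonucleotide reductase (−0.34). DESeq2 called 3 of them. Without auxin-treated replicate 2 none of the 45 was called by edgeR (2 higher and 13 lower had an unadjusted p under 0.05 in all libraries), without replicate 1 there was 1 call, and without untreated replicate 1 and 2 there were 18 and 6 lower with 2 higher in each. Fignl1, a recombination factor, fell from 1278 and 1425 to 994 and 1000 counts (−0.54), and Cdca7, a cofactor of the chromatin remodeler HELLS, from 1620 and 1841 to 1243 and 1358 (−0.51). Plk3, a stress-responsive kinase, fell from 1898 and 1915 to 1510 and 1487 counts (−0.45). Of 23 apoptosis genes, 4 were lower (17.4%, beside 1.64% of all genes and 2.91% of genes with 300 counts or more). These were Mcl1, a short-lived antiapoptotic protein (−0.33), and Casp2 (−0.48), Hrk (−0.40) and Bid (−0.32), which promote death. DESeq2 called Mcl1 alone of these. No gene of 22 in the p53 pathway was called by edgeR or by DESeq2, and 2 higher and 6 lower had an unadjusted p under 0.05.

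Most of the genes that fell by more than 1 on the log2 scale belonged to the miR-290 cluster, the main microRNA cluster of mESCs. Several of its mature forms share seeds that target cell cycle and other transcripts. The counts are of reads on the short precursor loci in a polyA library, not of mature microRNAs. The loci are on the plus strand of chromosome 7, opposite the annotated gene Nlrp12 (Mir290 excepted, which lies opposite Mir290b). A mature form of each lower locus, picked for seeds that match or nearly match, is shown from RefSeq (GRCm38.p6), with miR-291a-3p added for its shared seed. The seed, bases 2 to 8, is in capitals. The first 3 carry the same seed, miR-291b-3p differs from it in the last seed base, and the last pair carries another. The opposite arms miR-291b-5p, miR-293-3p, miR-294-5p and miR-295-5p are not shown and carry seeds other than those printed.
miR-294-3p: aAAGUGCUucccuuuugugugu
miR-295-3p: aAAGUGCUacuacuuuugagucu
miR-291a-3p: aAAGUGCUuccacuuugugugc
miR-291b-3p: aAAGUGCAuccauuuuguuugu
miR-292a-5p: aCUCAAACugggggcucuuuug
miR-293-5p: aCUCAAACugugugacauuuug

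Of the 7 loci tested 5 were lower (71.4%, beside 1.64% of all genes), and the median log2 fold change was −1.20. Mir292 had 127 and 79 counts in the untreated and 38 and 34 in the treated libraries, a log2 change of −1.62 with a standard error of 0.27 (adjusted p = 0.00623, edgeR). Mir294 was lowest in level, at 42 and 38 counts untreated and 12 in each treated library. Mir295 went from 173 and 122 to 73 and 47 counts (−1.40), Mir291b from 222 and 152 to 87 and 90 (−1.18) and Mir293 from 151 and 105 to 67 and 59 (−1.13). In all 5 loci the treated libraries lay below both untreated ones. Mir290, with 70 and 35 counts untreated and 18 and 31 treated, was not called (−1.20, adjusted p = 0.0892, edgeR), nor was Mir291a, whose groups overlapped (58 and 31 against 42 and 22). Without auxin-treated replicate 1 and 2 the cluster had 4 and 3 calls, and with no filter it had none by edgeR. Of 10 other microRNA genes tested none was called by edgeR or DESeq2, and 1 lower had an unadjusted p under 0.05.

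**Figure D2:**
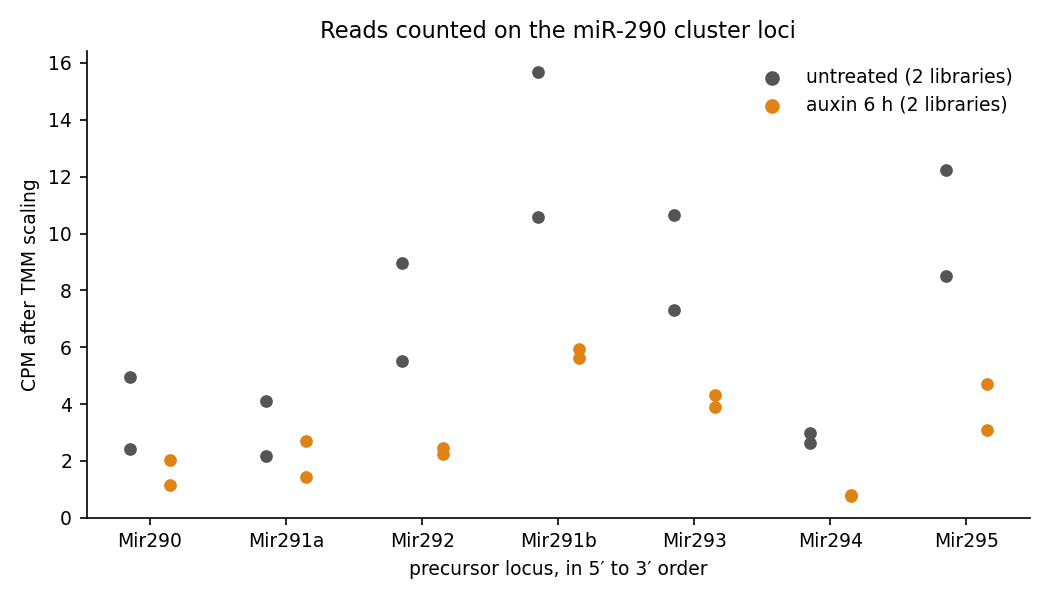
Level of reads on each precursor locus of the miR-290 cluster, in CPM after TMM scaling, with 1 point for each of the 2 untreated (grey) and 2 auxin-treated (orange) libraries. The groups are apart in every locus but Mir291a, and the untreated replicates are themselves spread, for example 8.97 and 5.50 CPM at Mir292.

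Among the higher genes averaging 50 counts or more, the 16 named by p-value or size of change had log2 fold changes from 0.87 to 3.10, and all 16 were called by DESeq2, when scaled to the mitochondrial mRNAs, and under each of the other alternatives tried. They came from unlike functions. Csrnp2, a nuclear cysteine- and serine-rich protein of a family first found as AXIN1-induced, had 322 and 313 counts in the untreated and 848 and 832 in the treated libraries, a log2 change of 1.30 with a standard error of 0.09 (adjusted p = 6.88e-06, edgeR), whereas its family members Csrnp1 (0.11) and Csrnp3 (−0.08) were not called. Slc5a3, the sodium-coupled myo-inositol transporter, went from 296 and 241 to 884 and 801 counts (1.54), and its counts are uncertain because Mrps6 overlaps it on the same strand. It was the 1 call among 9 osmolyte handling genes (11.1%, beside 4.20% of all genes). Qrich2, a gene best known from sperm, went from 23 and 15 to 153 and 123 counts (2.75). KCTD12, a GABA-B receptor auxiliary subunit written in capitals in the file, went from 62 and 53 to 184 and 165 (1.50). Rnd1, an atypical small G protein without GTPase activity, rose from 132 and 111 to 308 and 276 counts (1.16) and Rhob, a short-lived small GTPase, from 547 and 528 to 866 and 881 (0.60). The CSRNP family was compared after the values had been seen.

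**Figure D3:**
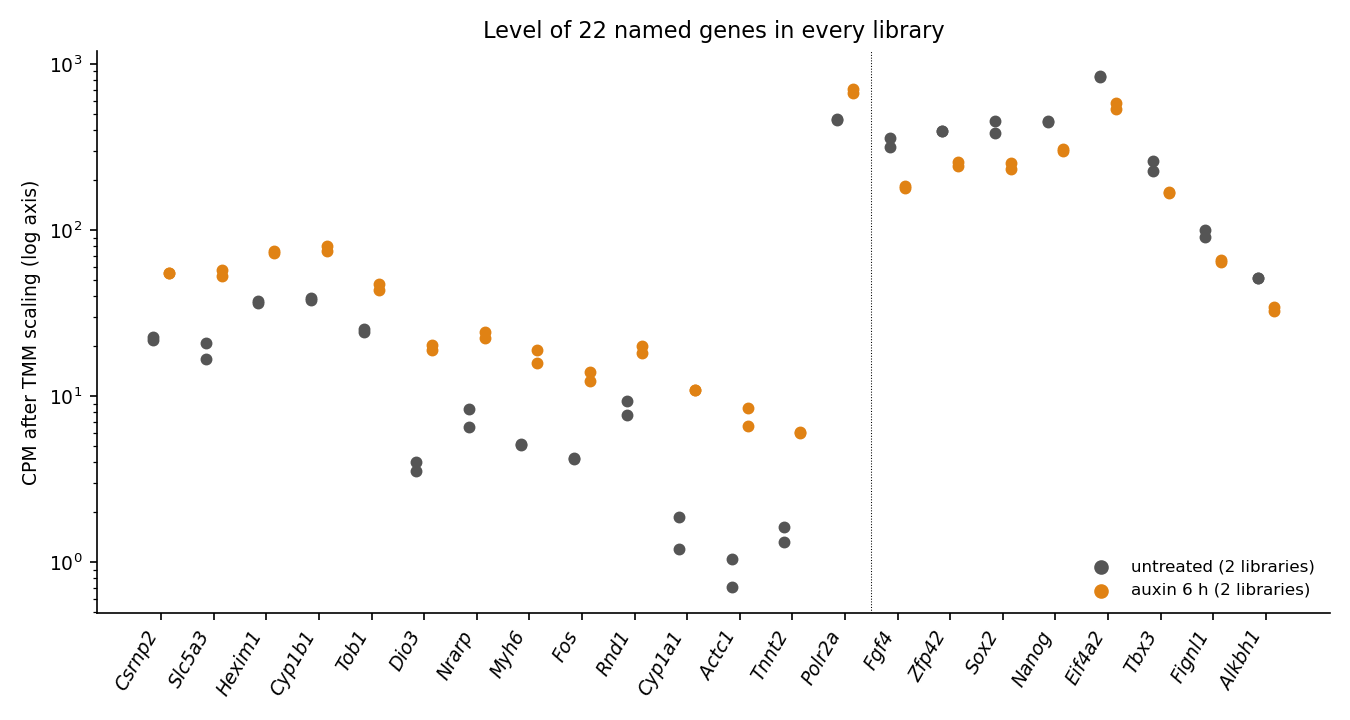
Level of 22 named genes in every library, in CPM after TMM scaling on a log axis, with grey points for the 2 untreated and orange points for the 2 auxin-treated libraries; genes left of the dotted line were called higher and those right of it lower. The groups are apart in each gene shown, and levels of the lower genes are mostly well above those of the higher genes, Polr2a excepted.

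Some genes of the heart sarcomere and of its calcium handling rose from very low levels, while most members did not pass the test. Of 30 tested heart muscle genes, 10 were called and all of these were higher (33.3%, beside 2.56% of all genes and 5.13% of genes under 50 counts), with a median log2 fold change of 0.38, or 0.21 when scaled to the mitochondrial mRNAs. The calls were 7 of 17 sarcomere genes and 3 of 7 genes of calcium handling and signals, and the 6 cardiac transcription factors, with log2 fold changes from −0.67 to 0.72, gave no call. Actc1, cardiac α-actin, had 10 and 15 counts in the untreated and 103 and 129 in the treated libraries, from 0.707 and 1.04 to 6.65 and 8.52 CPM. Myh6, the α-myosin heavy chain, had 73 counts in each untreated and 244 and 286 in the treated libraries, a log2 change of 1.76 with a standard error of 0.16 (adjusted p = 9.81e-05, edgeR). Tnnt2, cardiac troponin T, had 23 and 19 counts untreated and 93 and 92 treated (2.03, standard error 0.25, adjusted p = 0.000995, edgeR). These 3 kept their call under all 12 alternatives.

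Several of the remaining heart muscle calls rest on very few counts. Pln, Nppa, Casq2 and Myl2 passed the filter only through the treated libraries, where they were high. The share of the list that was called therefore includes genes that entered the test because of their treated counts. Pln, the phospholamban gene, had no count in the untreated libraries and 15 and 18 in the treated, at least 5.12-fold higher. Nppa, the natriuretic peptide A gene, had 1 and 4 counts untreated and 27 in each treated library (log2 fold change 3.27, standard error 0.53), Casq2, the calsequestrin of the heart, 4 and 3 against 20 and 20, and Myl2, a ventricular myosin light chain, 5 and 7 against 21 and 51. Actn2 (1.01), Mybpc3 (1.19) and Ttn (0.73) were the others, and Mybpc3 and Ttn were lost by DESeq2 (adjusted p = 0.141 and 0.067). DESeq2 called 6 of the 30, and without auxin-treated replicate 1 or 2 the calls were 6 and 5. Among the cardiac regulators Nkx2-5 was at 60 and 50 counts untreated and 63 and 64 treated (0.10) and Gata4 at 185 and 212 against 188 and 192 (−0.17). Myh7 (0.47) and Tnni3 (−0.03) were not called. Of the 19 actin cytoskeleton and SRF target genes outside the heart list none was called by edgeR or DESeq2 and 1 had an unadjusted p under 0.05, but 10 were higher without untreated replicate 1, and their median log2 fold change of 0.14 turned to −0.04 when scaled to the mitochondrial mRNAs.

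The CArG box, CC, 6 bases of A or T, and GG, is the site that serum response factor binds at muscle and early genes, so the 250 bases before the RefSeq start of each gene were searched for it on both strands. It stood in 148 of 10595 promoters of tested protein-coding genes (1.40%), in 3 of 231 of called higher genes (1.30%) and in 1 of the 10 called heart muscle genes, Actc1. A match in Cyp1a1, 32 to 23 bases before its start, lies in the stretch printed further on. The stretch from 180 to 21 bases before the Actc1 start, on the minus strand at chr2:114052896-114053055 (GRCm38.p6), is shown with this match in capitals.
Actc1: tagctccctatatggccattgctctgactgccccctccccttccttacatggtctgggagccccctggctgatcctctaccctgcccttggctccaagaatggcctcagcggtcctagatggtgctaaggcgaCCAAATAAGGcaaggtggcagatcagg

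Some classical targets of the aryl hydrocarbon receptor rose as well. The receptor is a ligand-activated factor that pairs with ARNT and is known to be bound by indole compounds, and auxin is indole-3-acetic acid. Of 9 tested genes 3 were called, all higher (33.3%, beside 2.56% of all genes), and all 3 were among its 6 targets. Cyp1a1, the cytochrome P450 most used as a readout of the receptor, had 17 and 27 counts in the untreated and 168 and 164 in the treated libraries, a log2 change of 2.81 with a standard error of 0.23 (adjusted p = 4.77e-05, edgeR). Cyp1b1 went from 549 and 540 to 1161 and 1216 counts (1.02, standard error 0.08, adjusted p = 1.91e-05, edgeR), and Tiparp, the target that ADP-ribosylates the receptor, from 833 and 813 to 1382 and 1194 (0.54, standard error 0.08, adjusted p = 0.00324, edgeR). DESeq2 called the same 3, and Tiparp was not called when scaled to the mitochondrial mRNAs (adjusted p = 0.447, edgeR). Neither Ahrr, the receptor's repressor, with 38 and 37 against 54 and 59 counts, nor Nqo1, with 453 and 439 against 576 and 554, was called. Both treated libraries lay above both untreated ones for these genes, as they did for 25.0% of all genes tested. The receptor gene Ahr (152 and 157 against 143 and 161 counts) and its partner Arnt (−0.18) were not called either. Auxin was given to the treated group alone, so an effect of the compound and an effect of the loss of Pol II cannot be told apart in these libraries.

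The core GCGTG of the receptor's binding site stood, on either strand, in the 250 upstream bases of all 3 of these genes, but also in 49.3% of promoters of tested protein-coding genes and in 39.4% of those of called higher genes. The stretches from 180 to 21 bases before the start are shown for Cyp1a1 (plus strand, chr9:57697433-57697592) and Cyp1b1 (minus strand, chr17:79715082-79715241), with the core or its reverse complement in capitals.
Cyp1a1: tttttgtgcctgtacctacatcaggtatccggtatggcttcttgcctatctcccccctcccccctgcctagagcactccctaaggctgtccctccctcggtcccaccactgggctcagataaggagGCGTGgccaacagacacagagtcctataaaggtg
Cyp1b1: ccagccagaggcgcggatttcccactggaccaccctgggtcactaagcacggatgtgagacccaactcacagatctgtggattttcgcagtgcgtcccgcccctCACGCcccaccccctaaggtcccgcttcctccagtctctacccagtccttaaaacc

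Several AP-1 genes rose among the immediate early genes. Immediate early genes are switched on within minutes by growth signals and stress without new protein synthesis, and their mRNAs are short-lived. Of 27 tested, 5 were higher and 1 lower (22.2% called, beside 4.20% of all genes), and 4 of the 5 were among the 8 AP-1 subunits. The median log2 fold change of 0.19 shrank to 0.01 when scaled to the mitochondrial mRNAs. Fos was at 60 and 60 counts untreated and at 191 and 213 treated (1.65, standard error 0.17, adjusted p = 0.000284, edgeR). Fosb went from 18 and 17 to 56 and 70 counts (1.74), Jun from 307 and 291 to 466 and 471 (0.54) and Fosl2 from 959 and 727 to 1273 and 1298 (0.50). Fos kept its call under all 12 alternatives, and on mitochondrial scaling Fos and Fosb alone did. Egr1, with 151 and 143 against 194 and 229 counts, was not called (0.42, adjusted p = 0.124, edgeR). The lower call, Mcl1, is also in the apoptosis list. Without auxin-treated replicate 2 the calls were Fos and 1 other gene, and without untreated replicate 1 they were 11 higher and 3 lower. TGACGTCA, the cAMP response element, and TGANTCA, the AP-1 site, stood in none and 1 of the 6 called promoters, compared with 2.93% and 5.41% of tested protein-coding genes.

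Signaling and chromatin genes gave single calls more than group shifts. Nrarp, a negative feedback gene of Notch, rose from 118 and 93 to 377 and 338 counts (1.66, standard error 0.14, adjusted p = 5.63e-05, edgeR). Notch4 (0.52) was the other call of 16 Notch genes (12.5% called, all higher, beside 2.56% of all genes), and it was lost by DESeq2 (adjusted p = 0.134). The Polycomb PRC1 subunits Rybp (−0.26) and Pcgf1 (−0.48) were lower and the 11 PRC2 genes, without a call, ranged from −0.27 to 0.06. The BMP targets Id4 (71 and 90 against 165 and 184 counts, 1.01) and Id3 (0.36) were higher and the activin receptor Acvr1b (−0.36) lower among 23 Nodal-BMP genes (13.0% called, beside 4.20% of all genes). Id3 was lost by DESeq2 (adjusted p = 0.169). Fzd2 (0.39) was the 1 call of 25 Wnt genes (4.00%, beside 4.20% of all genes) and was lost by DESeq2 (adjusted p = 0.057). Tet1, which oxidizes methylcytosine, fell from 4439 and 4644 to 3788 and 3747 counts (−0.37) and Gadd45b, a stress gene linked to demethylation, rose from 728 and 690 to 1200 and 987 (0.52), both lost when scaled to the mitochondrial mRNAs. Sox4 (0.46) was higher and Tfap2c lower among 26 primed and germ-layer markers (7.69% called, beside 4.20% of all genes). Of 24 Hox genes Hoxa2 was the 1 call (4.17%) and was higher, at 14 and 15 against 44 and 35 counts. DESeq2 lost Hoxa2 (adjusted p = 0.243). Among 342 numbered zinc finger genes 5 were higher and 9 lower (4.09%), close to the share of all genes, and Zfp703 (0.85) and Zfp296 (0.66) were among the higher ones.

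In the imprinted Dlk1-Dio3 locus a single gene was called. Dio3, the thyroid hormone-inactivating deiodinase, is a gene of 1 exon and had 57 and 51 counts in the untreated and 295 and 306 in the treated libraries, 5.17-fold higher (log2 fold change 2.37). Its neighbours Meg3 (0.29, adjusted p = 0.0758, edgeR), Dlk1 (0.33), Rian (0.08), Mirg (−0.24) and Rtl1, at 26 and 20 against 12 and 8 counts (−1.29, adjusted p = 0.087, edgeR), did not pass. Of 34 other imprinted genes Magel2, with 32 and 26 against 72 and 82 counts (1.30), Gnas (0.52) and Peg3 (0.45) were higher (8.82%, beside 2.56% of all genes). Among stress lists, Hspa1b, an inducible HSP70 (112 and 100 against 196 and 186 counts, 0.74), was higher and Hspa8 lower of 22 heat shock genes (9.09% called, beside 4.20% of all genes). DESeq2 lost Hspa1b (adjusted p = 0.0546). Of 23 ATF4 response genes Chac1 (−0.45) and Cebpg (−0.35) were lower (8.70%, beside 1.64% of all genes). Irf1 (0.56) was the 1 call of 20 interferon genes (5.00%), and Eno2 (−0.30) that of 22 glycolysis genes (4.55%), both shares near that of all genes. Col5a1 (0.40) and Col1a2 (0.36) were higher among 22 collagen and matrix genes (9.09%, beside 2.56% of all genes). The median log2 fold change of the 22 was 0.26, and 0.09 when scaled to the mitochondrial mRNAs. Of the 22, 11 were higher at an unadjusted p under 0.05, and the higher calls were 3 and 0 without auxin-treated replicate 1 and 2, and 15 and 8 without untreated replicate 1 and 2. These genes are strong in fibroblasts, and the feeder markers given above moved with them, with Col1a2 in both lists. Their part in the result was not tested.

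**Figure D4:**
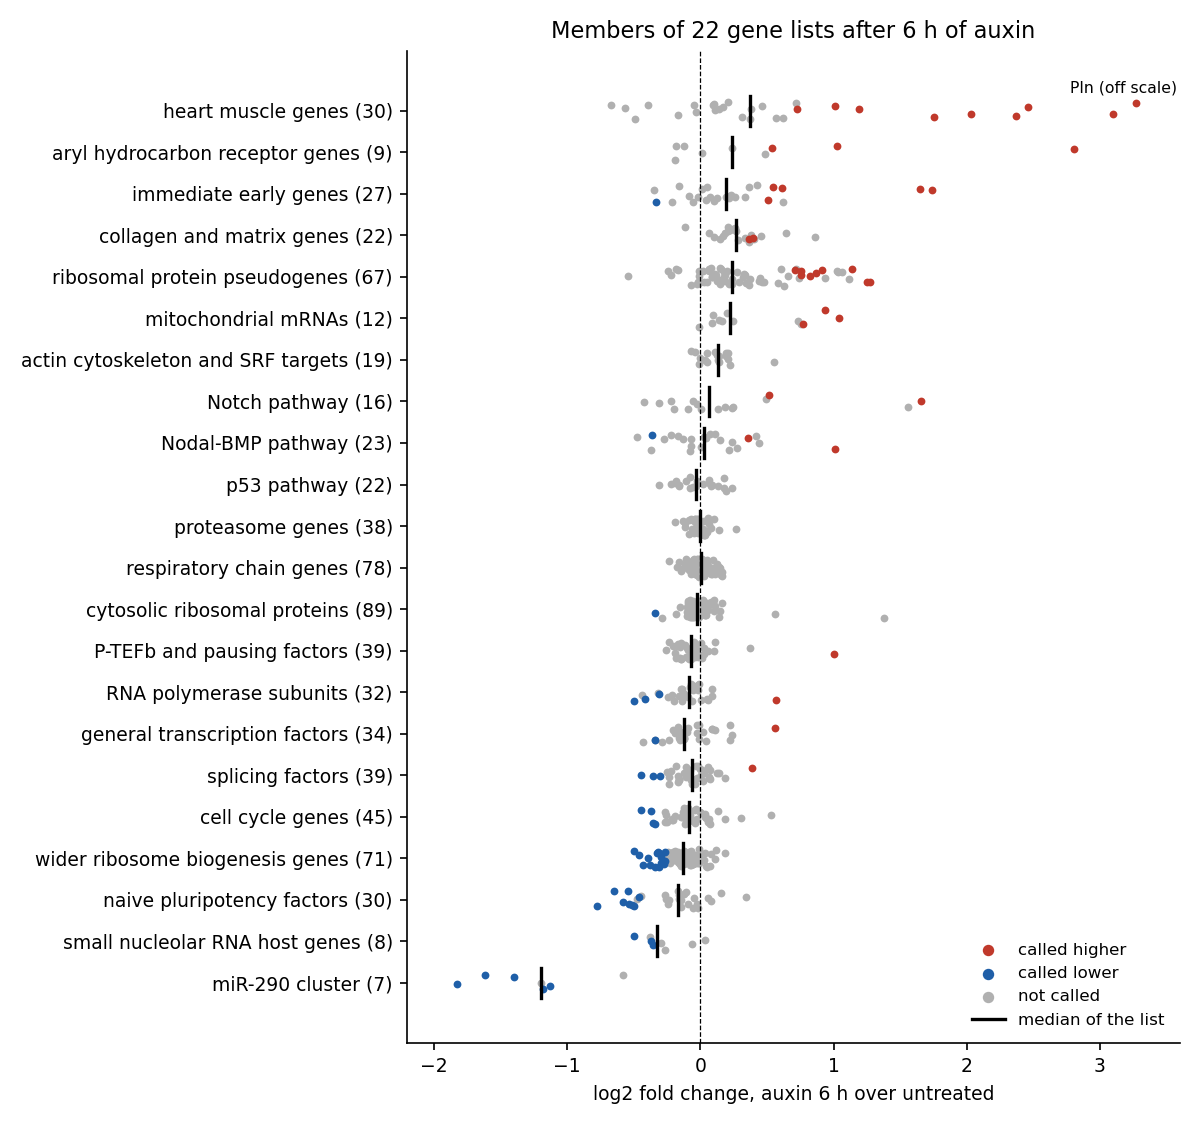
Log2 fold change of the tested members of 22 gene lists (number tested in parentheses), with called genes in red (higher) or blue (lower), other genes in grey and the median of each list as a black bar; the dashed line is the median of all genes tested. The heart muscle list holds calls beyond 2, Pln drawn at the right edge as it had no untreated count, whereas the proteasome and respiratory chain lists, without a call, sit in a narrow band at 0.

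Many of the higher genes were barely detected in untreated cells. With a mean under 50 counts 187 of 3646 genes were higher (5.13%) and 2 lower (0.0549%), with a median log2 fold change of 0.17, whereas with 300 or more counts 104 of 8189 were higher (1.27%) and 238 lower (2.91%). Of the 413 higher genes, 129 had at most 10 counts in both untreated libraries, 102 of them protein-coding, and 47 had at most 3. Such genes could pass the filter through the treated libraries alone, where they were high. One of the 264 lower genes had at most 10 counts in both treated libraries. In the whole table of 39017 genes, 118 had no count in the untreated libraries and at least 3 in each treated one, compared with 4 genes the other way round. The treated libraries were the deeper ones, and the part of depth in this was not tested. Of the 118, 58 were protein-coding, 15 processed pseudogenes, 12 antisense and 10 long intergenic non-coding RNAs. Listed genes that started this low included Cyp2e1, a cytochrome P450 of liver (0 and 1 against 19 and 24 counts), and the olfactory receptor gene Olfr91 (0 and 3 against 26 and 25). Both passed the filter only through the treated libraries. Other liver markers did not follow, with a summed level of 4 defining liver genes, Ttr without a count, of 1.63 and 1.71 CPM untreated and 1.63 and 1.58 CPM treated. With at least 10 counts required in every library, 246 genes were higher and 186 lower.

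Genes without introns were called higher more often than genes with introns, a comparison set up after the values were seen and given without a test. Among protein-coding genes averaging 50 counts or more, 18 of 206 genes with a single exon in every annotated transcript were higher (8.74%) and 5 lower (2.43%), compared with 159 (1.37%) and 239 (2.06%) of 11590 genes with 2 or more exons. Of the 18, 3 are mitochondrial genes, and without the mitochondrial genome it was 15 of 194 (7.73%). The single-exon genes that rose included Dio3, Hexim1, Nrarp, Rhob, Jun, Magel2, Hspa1b, Sox4, Sox11, Fzd2 and Fzd8, many of them regulators, and those that fell included Sox2 and Rrs1. Processed pseudogenes, which also lack introns, were higher in 42 of 578 cases (7.27%) and lower in 2, with a median log2 fold change of 0.18. Their median level was 46.1 counts, and all genes under 50 counts had 5.13% higher and a median of 0.17. Level and lack of introns are therefore not separated for this class. Between replicates its median log2 ratio, replicate 2 over 1, was 0.10 in the untreated and −0.15 in the treated pair. Of 67 ribosomal protein pseudogenes 9 were higher (13.4%) and the median was 0.24, or 0.08 when scaled to the mitochondrial mRNAs. Rps27a-ps2 had 260 and 363 counts in the untreated and 649 and 482 in the treated libraries. Without auxin-treated replicate 1 none of the 67 was called by edgeR (9 without replicate 2, 23 without untreated replicate 2, 28 with an unadjusted p under 0.05 in all libraries, 5 called by DESeq2), and reads of a pseudogene cannot be told apart from those of its parent gene where the sequences match. Telomerase RNA, Terc, a non-coding gene of 1 exon, had 19 and 13 counts against 59 and 55 (1.72).

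**Figure D5:**
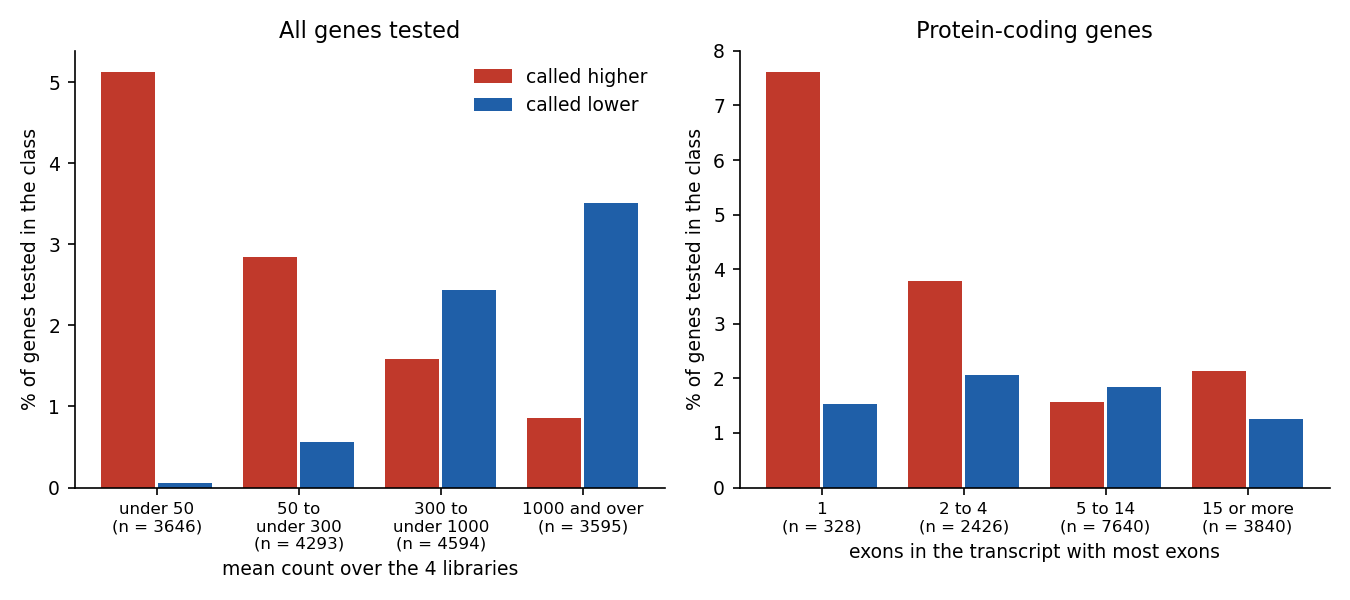
Percentage of genes called higher (red) and lower (blue) among all tested genes by mean count (left) and among protein-coding genes by the number of exons in the transcript with most exons (right), with the number of genes in each class below the bars. The share called higher falls from 5.13% to 0.862% as counts rise while the share called lower climbs from 0.0549% to 3.50%, and single-exon genes have the highest share called higher, 7.62%.

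Transcripts of the mitochondrial genome, which are made without Pol II, had a median log2 fold change of 0.22 over 12 tested mRNAs. Of the 12, 3 were called, all higher (25.0%, beside 2.56% of all genes). Called higher were mt-Co2 (229 and 333 against 699 and 542 counts, 1.04), mt-Atp6 (133 and 169 against 302 and 320, 0.94) and mt-Co3 (112 and 195 against 294 and 270, 0.77). Without auxin-treated replicate 1 or 2 the calls were 2 in each case, and without untreated replicate 1 and 2 they were 5 and 9. Mitochondrial genes took 0.341% and 0.401% of the counts in the untreated and 0.399% and 0.441% in the treated libraries. None of 78 nuclear respiratory chain genes was called by edgeR or DESeq2, with 2 higher and 2 lower at an unadjusted p under 0.05.

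Many functions showed no call. By edgeR and by DESeq2 none was called of 38 proteasome genes (1 lower at an unadjusted p under 0.05), 27 sterol and fatty acid synthesis genes (1 higher and 2 lower), 18 CTCF and cohesin genes (3 lower), 20 replication-dependent histone genes (1 lower), 14 circadian genes (2 lower), 23 methylation-silenced germline genes (1 higher and 1 lower) and 17 genes of the 2-cell-like state (none). Rad21, the cohesin subunit, had 3438 and 3208 counts in the untreated and 3285 and 3137 in the treated libraries (−0.15, standard error 0.07), and Smc3 had 2636 and 2622 against 2739 and 2634 (−0.07, standard error 0.06). Psmd2 (0.05, standard error 0.07) and Atp5b (−0.04, standard error 0.09) were other members without a call. Blood markers summed to 4.19 and 3.90 CPM untreated against 4.69 and 4.82 treated, and skin epithelium markers to 7.45 and 7.05 against 6.77 and 6.40. The 6 defining neuron markers, without a call, summed to 198 and 236 against 190 and 203 CPM. In the wider list of 11 tested neuron markers Elavl3 was called higher (9.09%, beside 2.56% of all genes). It went from 286 and 338 to 519 and 532 counts (0.65), and its call was lost when scaled to the mitochondrial mRNAs. The 8 defining heart muscle markers, all tested, summed to 22.8 and 22.6 CPM untreated and 46.2 and 52.6 treated, with 4 called higher.

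Levels in wild-type cells are given for a few of these genes. The counts stand in a separate table, the extraction record of these libraries names retina, and whether the cells received doxycycline is not given in the sources used here, so the values, scaled by TMM over all 6 libraries, are set side by side without a test. Cyp1a1 was at 0.141 and 0.209 CPM in wild-type, 1.19 and 1.86 in untreated and 10.5 and 10.6 in auxin-treated cells. Cyp1b1 was at 10.7 and 11.0, 38.3 and 37.1, and 72.8 and 78.5 CPM in the same order. For both genes the untreated degron cells lay above wild type. The reverse held for Tob1, at 45.4 and 45.7 CPM in wild-type, 25.0 and 23.9 in untreated and 45.9 and 42.3 in treated cells. Hexim1 was at 59.2 and 61.7, 36.1 and 36.7, and 72.3 and 71.4 CPM in that order. Sox2, at 757 and 738 CPM in wild-type cells, fell from an untreated level of 376 and 445 CPM to 226 and 246.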

How the data were processed

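PolyA RNA was sequenced as 150 bp paired reads. The authors aligned them with HISAT2 2.1.0 to mm10 and deposited counts per gene made with htseq-count on GENCODE, not normalized; the release and strand setting are not given in the sources used here, so overlapping and antisense genes are uncertain. Their columns of fold changes, p-values and group means, and 2 columns of per-sample values that matched no sample, were not used. Libraries were grouped by their labels, with 2 samples per group that the study describes as biological replicates.

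The count test was the quasi-likelihood F-test of edgeR 4.0.16 (R 4.3.3, filterByExpr with a minimum count of 10, TMM scaling, prior count 0.125, Benjamini-Hochberg adjustment over 16128 genes, threshold 0.05). DESeq2 1.42.0 was an alternative. On simulated counts for this comparison, with 200 of 16128 genes changed, all genes at a log2 change of 2 in size, 94% of those at 1 and 92% of those at −1 were recovered. The changed genes were drawn from those above a minimum mean count, and all genes shared a common dispersion. Recovery of smaller changes, or at the lowest counts, was not examined. Positions and exons came from GENCODE vM21 (176 tested genes had no entry), and sequences from RefSeq GRCm38.p6. A fold against 0 counts used a floor of 3 counts per library. Counts and p-values cover the spread between these samples.

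Genes were named as Polr2a, Polr1a and Polr3a, in each direction the 15 protein-coding calls of smallest p and the 5 of largest change averaging 50 counts or more, up to 4 calls per list by p, and the 2 most abundant members of a list without calls; others were chosen after their values were seen. The 57 lists and their members were chosen with earlier results of these data known, and 5 more lists were written after the values were seen. A few items are not reported here.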

Additional observations from a re-analysis of the deposited data

How the results depend on the processing

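No named called gene changed sign under the 12 alternatives, but counts of calls moved, and adding the wild-type libraries turned the balance from more higher to more lower genes (567 and 668). DESeq2 gave 176 higher and 114 lower genes, 99 of the higher past a log2 change of 1. Scaling to the mitochondrial mRNAs gave 167 and 52, with 154 and 19 past 1. Without a filter there were 43 and 12, with 36 and 0 past 1 by edgeR, although 66 genes had an unadjusted p under 0.05 and a log2 change under −1, and DESeq2 with the filter called 6 past −1. Requiring 10 counts in every library left 246 higher genes, 105 past 1. With the wild-type libraries 15 of the lower genes were past −1. Leaving out 1 library at a time, with the lone library assumed to vary like the other group, gave 142 to 1394 higher and 35 to 1330 lower genes, and 99 to 366 and 5 to 24 past 1. With the replicate number as a block there were 1081 higher and 849 lower, 365 and 23 past 1. The labels do not say that a number pairs libraries, and same-numbered libraries deviated together with a correlation of only 0.053, so the block is not read as a better fit. Causes of these moves were not tested. Of 156 named called genes, 54 kept their call on mitochondrial scaling and 96 by DESeq2. Depth limits the fold changes of genes with 10 counts or fewer in the untreated libraries.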
